A study of Drosophila melanogaster with 9 samples.

Results

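The genes CG32206, CG15547, CG13511 and CG42565 are annotated Drosophila loci that carry only numbers for names. They were chosen for their higher transcript level in ovarian somatic cells (OSCs) depleted of Acn, and they are 4 of the 8335 genes with a listed transcript level. All introns listed under their names were taken with them. These are 18 entries over 17 distinct intervals, of 60779 listed introns. OSCs are a cultured line of Drosophila ovarian somatic cells grown at 27°C. PolyA-selected RNA was sequenced from OSCs transfected with siRNA against Acn (siAcn), siRNA against tsu (siTsu) or, as the control, siRNA against GFP (siGFP). Each group had 2 libraries, described by the study as biological duplicates of this single line. No other agent or allele distinguished the groups, and all 3 groups went through the same transfection procedure.

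The exon junction complex (EJC) is deposited on mRNAs upstream of spliced junctions and marks where introns were removed. Its core contains Tsu (Y14), Mago and eIF4AIII. Acn (Acinus) is a peripheral component that forms the ASAP complex with RnpS1 and SAP18. In Drosophila, depletion of EJC factors is known to cause exon skipping next to very long introns and retention of certain introns. The comparison with siTsu therefore asks whether the genes that are high in siAcn cells are also high when the EJC core is depleted, and their introns can be read in the same libraries.

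The knockdowns were visible in the targeted genes. Acn had 16.8 and 16.5 RPKM (reads per kilobase and per M reads) in siAcn libraries, 96.3 and 104.5 RPKM in siTsu libraries and 98.1 and 140.4 RPKM in siGFP libraries. The tsu transcript had 111.3 and 94.6 RPKM in siAcn libraries, 9.77 and 9.16 RPKM in siTsu libraries and 128.4 and 111.6 RPKM in siGFP libraries. The reads behind the scale of a library, recovered from the steps of the intron values, numbered 13.36 to 18.67 M for siAcn, 11.53 to 15.85 M for siTsu and 28.81 to 30.35 M for siGFP, so the knockdown libraries were the shallower ones. All 6 follicle cell markers were detected in each library at 30.9 RPKM or more. Of 6 germline markers 4 were listed, with summed levels of 5.6 to 7.49 RPKM in siAcn, 4.81 to 6.71 RPKM in siTsu and 3.86 to 4.12 RPKM in siGFP libraries. The summed hemocyte markers (2 of 4 listed) lay at 2.77 to 3.38, 2.33 to 2.41 and 3.34 to 3.49 RPKM in siAcn, siTsu and siGFP libraries, and the muscle markers (3 of 4 listed) at 7.08 to 7.16, 5.59 to 6.49 and 6.0 to 6.55 RPKM, while none of 4 fat body markers was listed. The summed follicle cell markers, with piwi among them, were 897.0 to 1099 RPKM in siAcn, 584.1 to 733.5 RPKM in siTsu and 1217 to 1420 RPKM in siGFP libraries. Much of the drop in this sum lay in piwi, with 317.1 and 249.7 RPKM in siAcn, 195.7 and 124.4 RPKM in siTsu and 611.8 and 447.4 RPKM in siGFP libraries. The study reports lower piwi RNA in these knockdowns. The part of these marker shifts in the results below was not tested, and in such bulk samples fewer cells of a type cannot be told apart from less RNA per cell.

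The 4 genes differed in what they did after tsu knockdown. CG13511 and CG42565 were as high in siTsu as in siAcn cells, CG32206 was high in siTsu cells but lower than in siAcn cells, and CG15547 was high in siAcn cells, with its siTsu libraries below those of siGFP. The genes also differed in structure, with 13 introns of up to 26248 nt in CG32206 and none longer than 207 nt in the listed introns of the other genes.

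CG32206, on chromosome 3L, had the lowest control level of the group. Its transcript level was 8.87 and 12.3 RPKM in siAcn libraries, 3.30 and 4.64 RPKM in siTsu libraries and 0.797 and 0.693 RPKM in siGFP libraries. The 3 groups did not overlap, with siAcn highest and siTsu in between. With the annotated transcript of 7272 nt and 14 exons, these values equal 1204 and 1197 reads in siAcn, 380 and 389 reads in siTsu and 167 and 153 reads in siGFP libraries. The mean was 10.6 ± 2.4 RPKM in siAcn, 3.97 ± 0.95 RPKM in siTsu and 0.745 ± 0.073 RPKM in siGFP cells (SD, n = 2 each), which is 14.2-fold higher in siAcn and 5.33-fold higher in siTsu cells than in siGFP cells.

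CG15547, on chromosome 3R, had 34.5 and 29.8 RPKM in siAcn libraries, 5.71 and 5.36 RPKM in siTsu libraries and 8.26 and 7.02 RPKM in siGFP libraries. Both siAcn libraries stood above all others, and both siTsu libraries lay just below the siGFP libraries. With its transcript of 1601 nt and 3 exons this equals 1032 and 637 reads in siAcn, 145 and 99 reads in siTsu and 381 and 341 reads in siGFP libraries. The mean of 32.2 ± 3.4 RPKM in siAcn cells was 4.21-fold higher, and the mean of 5.54 ± 0.25 RPKM in siTsu cells 0.725-fold, relative to 7.64 ± 0.88 RPKM in siGFP cells (SD, n = 2 each).

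CG13511, on chromosome 2R, had 7.84 and 7.29 RPKM in siAcn libraries, 8.30 and 9.12 RPKM in siTsu libraries and 1.18 and 1.65 RPKM in siGFP libraries. Its fold over siGFP cells was 5.35 in siAcn and 6.16 in siTsu cells. CG42565, at the same locus, had 18.1 and 16.8 RPKM in siAcn libraries, 19.4 and 21.2 RPKM in siTsu libraries and 5.19 and 3.72 RPKM in siGFP libraries. Its folds were 3.93 and 4.56 in siAcn and siTsu cells. For both genes all knockdown libraries lay above the control libraries, and the siTsu libraries were the highest.

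**Figure D1:**
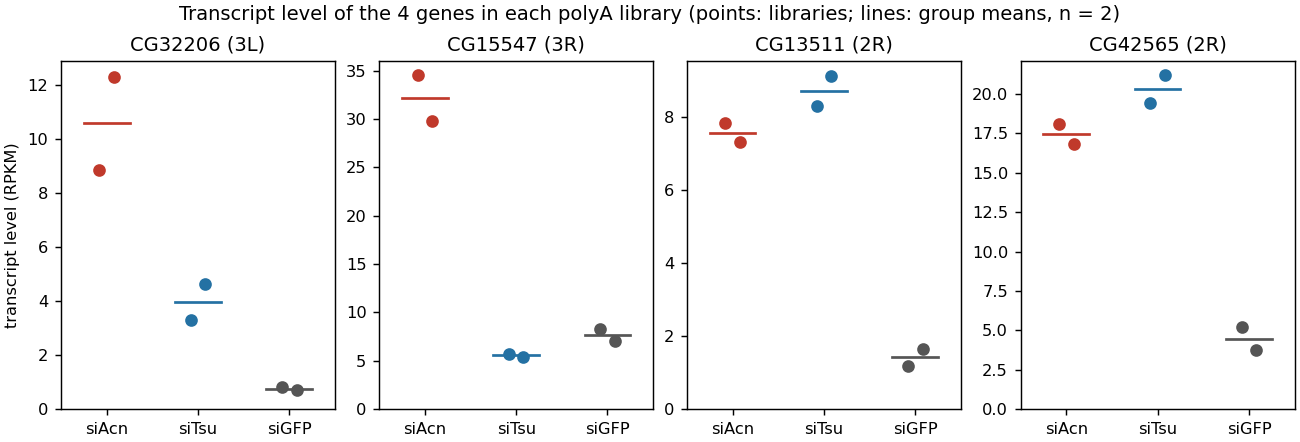
Transcript level in RPKM (y axis, from 0, its own scale for each gene) in the 6 polyA libraries, with points for libraries and lines for the means of 2 libraries; groups run siAcn, siTsu, siGFP from left to right. CG15547 is high in siAcn libraries alone, CG32206 is graded from siAcn to siTsu to siGFP, and CG13511 and CG42565 have both knockdowns above the control.

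The higher level in siAcn cells is what the genes were chosen for, so it is given without a test. Among the 7362 genes that averaged 1 RPKM or more over the 6 libraries, ordered by their ratio of siAcn to siGFP means, CG32206 ranked 2, CG13511 ranked 18, CG15547 ranked 28 and CG42565 ranked 36. For scale, limma called 4 genes higher (0.0543%) and 1 lower (0.0136%) in siAcn than in siGFP cells, and the 4 higher ones are the 4 genes described here, from which nothing is read. That count was 0 higher and 0 lower without any one siAcn or siTsu library, and 0 higher and 1 lower without either siGFP library. By the ratio of means, 187 genes (2.54%) were at least 2-fold higher in siAcn than in siGFP cells, and 33 genes (0.448%) at least 4-fold. Both siAcn libraries lay above both siGFP libraries in 11.8% of the 7362 genes, and the 4 genes are 4 of these by their choice. In siGFP cells CG32206 lay at percentile 0.937 of the transcript levels of these 7362 genes, with CG13511 at percentile 3.02, CG42565 at 10.4 and CG15547 at 17.3. CG32206 had a siGFP mean of 0.745 RPKM and is in this set only through its knockdown libraries. Most genes that low in all libraries were left out, so its low percentile is partly built in. In siAcn cells CG32206 lay at percentile 25, CG13511 at 17.8, CG42565 at 40.1 and CG15547 at 61.8.

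In siTsu against siGFP cells, 3 of the 4 genes were called higher by limma at an adjusted p under 0.05, where 90 of 7362 genes (1.22%) were called higher and 181 (2.46%) lower. The genes were chosen for their level in siAcn cells, and the siGFP libraries entered that choice, so that a low control level is built into this comparison too. They are also the 4 genes called higher in siAcn cells by the same fit, whose spread is shared with the siTsu libraries. If the choice followed that fit, close siTsu replicates were favoured as well, so these calls are not independent of the choice. CG13511 rose by 2.01 ± 0.18 and CG42565 by 1.98 ± 0.17 on the log2(RPKM + 1) scale (SE, limma, adjusted p = 0.00829 for each), a scale that understates the change of low genes. CG32206 rose by 1.5 ± 0.23 (limma, adjusted p = 0.0289). CG15547 had a difference of -0.40 ± 0.15 that did not pass (limma, adjusted p = 0.171). By the ratio of means the rank of the genes among 7362 was 41 for CG13511, 49 for CG32206, 64 for CG42565 and 6108 for CG15547. Both siTsu libraries lay above both siGFP libraries in 20% of genes, among them CG32206, CG13511 and CG42565, and below them in 35.2%, among them CG15547. Each call rests on few libraries. The CG32206 call was lost without siTsu replicate 1 (limma, adjusted p = 0.0688), siTsu replicate 2 (0.207), siGFP replicate 1 (0.137) or siGFP replicate 2 (0.0870). The call for CG13511 was lost without siTsu replicate 2 (limma, adjusted p = 0.0822) or siGFP replicate 1 (0.0627), and that for CG42565 without siTsu replicate 2 (0.0758). The number of all genes called fell likewise, to 25 without siTsu replicate 1, 6 without siTsu replicate 2, 10 without siGFP replicate 1 and 46 without siGFP replicate 2, against 271 with all libraries.

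**Figure D2:**
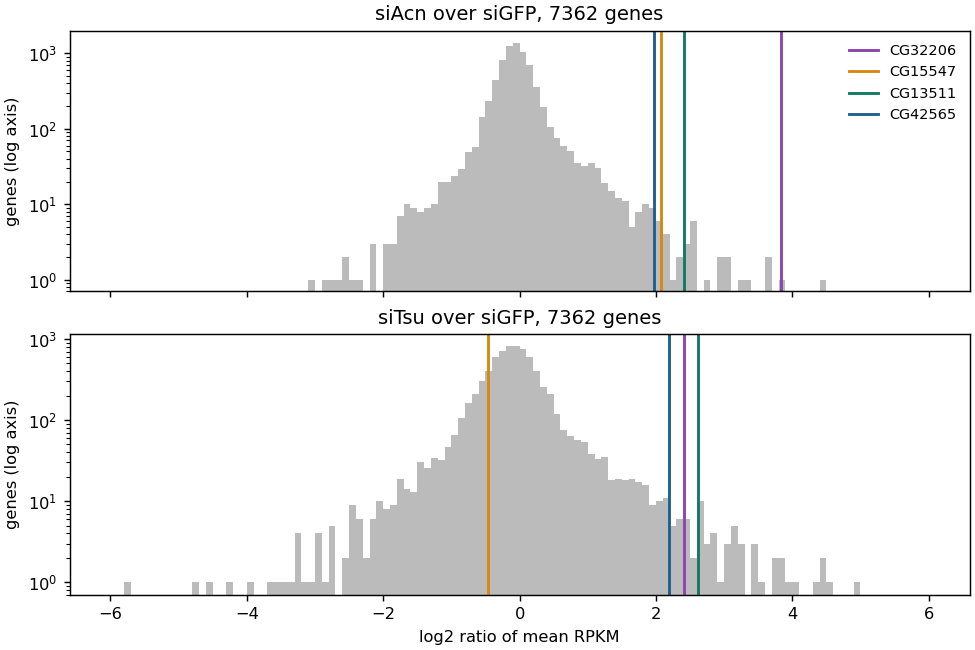
Number of genes (y axis, log scale) by log2 ratio of mean RPKM (x axis) for siAcn over siGFP (top) and siTsu over siGFP (bottom), over 7362 genes, with a line for each of the 4 genes. All 4 lines lie in the right tail for siAcn, by choice; for siTsu the CG15547 line lies left of 0, at a 0.725-fold level, and the other lines remain in the right tail. Both panels use the same siGFP libraries.

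The difference between the knockdowns shares the siAcn libraries that chose the genes, so it is a description. Both siTsu libraries were below both siAcn libraries for CG32206 and CG15547, and above them for CG13511 and CG42565. The difference was large for CG15547 and CG32206 and small for the genes on 2R, whose siAcn libraries spanned 7.29 to 7.84 RPKM against 8.30 to 9.12 RPKM in siTsu for CG13511.

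CG13511 and CG42565 are not independent observations. Both lie on the plus strand of 2R, next to CG13510, and one 4-exon transcript of 2577 nt is annotated under all 3 gene names. It has introns of 647, 58 and 207 nt. The intron of 207 nt (interval 2R:18548332-18548608, dm3) is listed under each of the 3 names with the same values. Across the tables, 805 of 59900 distinct intervals (1.34%) are listed under more than 1 gene name. The CG13511 values equal whole reads of the shared transcript in 5 of 6 libraries, with 377 and 251 reads in siAcn, 339 and 271 reads in siTsu and 129 reads in 1 siGFP library. In siTsu replicate 1 CG13510 and CG13511 have the same level, 8.30 RPKM. CG42565 gave whole reads for no annotated transcript in most libraries, and how its value was formed from its transcripts is not given in the sources used here. The 4 genes are thus 3 loci.

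CG13510 itself had 2.92 and 2.71 RPKM in siAcn libraries, 8.30 and 3.20 RPKM in siTsu libraries and 0.961 and 0.718 RPKM in siGFP libraries. All knockdown libraries were above the control libraries, and the siTsu difference of 1.77 ± 0.37 on the log2(RPKM + 1) scale did not pass (SE, limma, adjusted p = 0.0542). The genes around this locus did not share the pattern. CG43325, upstream on the other strand, had 2.30 and 1.92 RPKM in siAcn libraries, 1.04 and 1.78 RPKM in siTsu libraries and 6.48 and 5.87 RPKM in siGFP libraries. It was lower in siTsu than in siGFP cells by the test (log2 -1.59 ± 0.23, limma, adjusted p = 0.0241), a call lost without any one of the siTsu or siGFP libraries (0.0791 to 0.137). In siAcn cells its difference of -1.21 ± 0.23 did not pass (limma, adjusted p = 0.227). CG42566, just downstream on the same strand, had 78.2 and 62.9 RPKM in siAcn libraries, 67.6 and 73.8 RPKM in siTsu libraries and 67.4 and 75.3 RPKM in siGFP libraries, with the groups overlapping. CG4250, the next gene downstream, had 144.7 and 52.0 RPKM in siAcn libraries, 110.1 and 58.1 RPKM in siTsu libraries and 232.4 and 183.5 RPKM in siGFP libraries. Both knockdowns were below the control there, without passing (limma, adjusted p = 0.621 for siAcn and 0.156 for siTsu).

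The introns of this locus carried few reads. The intron of 58 nt under CG13511 (2R:18547448-18547575, dm3) had no read in any of the 6 libraries, which for the pooled siGFP libraries allows up to 0.399 RPKM (3 reads, for counting error only). The intron of 647 nt, listed under CG13510 and not under CG13511 or CG42565, also had no read in any of the 6 libraries. The shared intron of 207 nt had 1.75 and 1.90 RPKM in siAcn libraries, 0.914 and 0.628 RPKM in siTsu libraries and 1.01 and 0.239 RPKM in siGFP libraries. These are 9 and 7 reads, 4 and 2 reads, and 8 and 2 reads, so that both siTsu libraries lie between the siGFP libraries. The retention index is the intron level as a share of the transcript level of that library. Taken over the CG13511 level it was 22.3% and 26.0% in siAcn, 11.0% and 6.89% in siTsu and 85.3% and 14.5% in siGFP libraries. In siTsu against siGFP cells its difference did not pass (log2 -2.07 ± 0.73, SE, limma over 21436 introns, adjusted p = 0.406). Computed with the CG42565 level the difference was -1.69 ± 0.52 (limma, adjusted p = 0.347).

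The introns of CG15547 are short, and they differed from each other in siAcn cells. Its first intron, int1, is 56 nt long (3R:26708759-26708884, dm3, minus strand) and had 18.9 and 18.0 RPKM in siAcn libraries, 1.51 and 2.08 RPKM in siTsu libraries and 1.11 and 2.37 RPKM in siGFP libraries. The siAcn libraries stood apart and the siTsu and siGFP libraries overlapped. In recovered reads these are 44 and 30 in siAcn, 3 and 3 in siTsu and 4 and 9 in siGFP libraries. The intron level was 10.6-fold higher in siAcn than in siGFP cells, while the transcript was 4.21-fold higher. The intron fold was 16.6 without siGFP replicate 2 and 7.76 without siGFP replicate 1, an alternative added after the data had been seen. The retention index of int1 was therefore 54.6% and 60.3% in siAcn, 26.5% and 38.8% in siTsu and 13.4% and 33.8% in siGFP libraries. Its mean was 57.5% ± 4.0 in siAcn and 23.6% ± 14.4 in siGFP cells (SD, n = 2 each), a ratio of 2.43. That ratio was 4.27 without siGFP replicate 2 and 1.70 without siGFP replicate 1. In siTsu cells the mean was 32.7% ± 8.7, and the difference from siGFP did not pass (log2 0.57 ± 0.47, SE, limma, adjusted p = 0.716), turning to -0.06 without siGFP replicate 1.

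The second intron of CG15547, int2, is of nearly the same length (55 nt, 3R:26708615-26708739, dm3). It had 1.73 and 0.604 RPKM in siAcn libraries, 0.509 and 0 RPKM in siTsu libraries and 0.840 and 1.33 RPKM in siGFP libraries, or 4 and 1 reads, 1 and 0 reads, and 3 and 5 reads. The groups overlapped, and int2 did not follow the transcript in siAcn cells. Its retention index was 5.0% and 2.03% in siAcn, 8.90% and 0% in siTsu and 10.2% and 18.9% in siGFP libraries. In siTsu against siGFP cells the difference was -1.78 ± 0.94 and did not pass (log2, SE, limma, adjusted p = 0.589). Both introns of CG15547 were read over intervals that were 69 nt longer than the introns, so the interval of each holds more exon than intron sequence. Whether reads within the exon flank were counted is not given in the sources used here. The neighbouring gene Sap-r, at 147.5 to 277.1 RPKM, has introns of 57 to 74 nt with intervals extended alike. Each had at most 1 read in any siAcn or siTsu library and at most 3 in any siGFP library, so few reads within their flanks were counted. In both genes of the group with an intron of under 60 nt, the other such introns had at most 5 reads in any library.

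For scale, 82 listed introns of up to 70 nt had at least 20 reads in siAcn libraries and a value in siGFP libraries, and 3 of them (3.66%) had a mean RPKM at least 5-fold higher in siAcn than in siGFP cells. These introns were taken by their reads in the siAcn libraries, which also enter the fold, so this share is not a neutral background. Over all 20270 introns compared, 351 (1.73%) were at least 5-fold higher in RPKM, and 2498 (12.3%) had a mean retention index at least 2-fold higher, CG15547 int1 being among each of these.

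**Figure D3:**
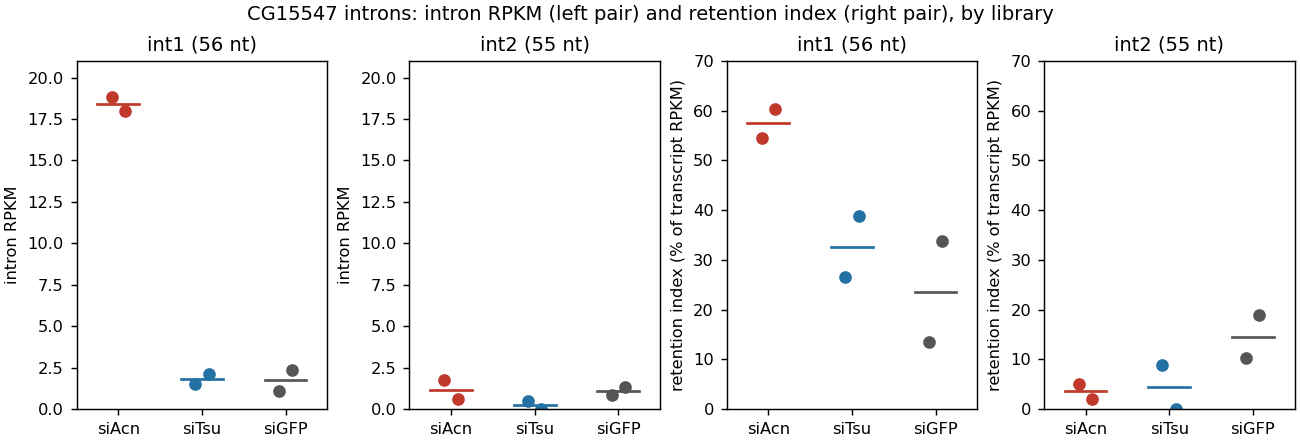
Intron RPKM (left pair of panels) and retention index in % of the transcript RPKM (right pair) for int1 and int2 of CG15547 in the 6 polyA libraries, with points for libraries and lines for means of 2; groups run siAcn, siTsu, siGFP. The siAcn libraries are at 18.9 and 18.0 RPKM in int1, while every library is under 2 RPKM in int2.

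The gene next to CG15547 had its groups in the same order. CG12071 lies downstream on the same strand with no gene annotated between them and had 8.80 and 6.99 RPKM in siAcn libraries, 1.52 and 1.90 RPKM in siTsu libraries and 2.71 and 3.18 RPKM in siGFP libraries. Its siAcn libraries were the highest and its siTsu libraries the lowest. Neither difference passed, with log2 1.17 ± 0.20 in siAcn (limma, adjusted p = 0.190) and -0.54 ± 0.20 in siTsu cells (adjusted p = 0.163). The first intron of CG12071 (856 nt, 3R:26705594-26706519, dm3) had 12.6 and 9.63 RPKM in siAcn libraries, 1.5 and 0.188 RPKM in siTsu libraries and 2.29 and 3.06 RPKM in siGFP libraries, from 217 and 119, 22 and 2, and 61 and 86 reads. Its retention index was 142.8% and 137.7% in siAcn libraries, 98.9% and 9.89% in siTsu libraries and 84.5% and 96.3% in siGFP libraries. In the fifth intron of CG12071 (149 nt) the index went the other way, siAcn below siGFP. It was 139.6% and 68.7% in siAcn, 95.4% and 146.9% in siTsu and 182.2% and 156.8% in siGFP libraries, from 50 and 14, 5 and 7, and 31 and 33 reads. The RPKM of the fifth intron was not lower in siAcn cells but overlapped. It was 12.3 and 4.81 in siAcn, 1.45 and 2.78 in siTsu and 4.94 and 4.99 in siGFP libraries. Sap-r, a saposin-related gene that overlaps CG15547 upstream on the same strand, had 209.5 and 147.5 RPKM in siAcn libraries, 217.6 and 185.7 RPKM in siTsu libraries and 277.1 and 221.6 RPKM in siGFP libraries. It was not higher in siAcn cells (log2 -0.49 ± 0.22, limma, adjusted p = 0.685). The next listed genes on either side overlapped between siAcn and siGFP. They were cindr, an adaptor protein gene, with 17.1 and 35.6 RPKM in siAcn and 17.0 and 22.7 RPKM in siGFP libraries, and 5-HT7, a serotonin receptor gene, with 1.91 and 0.495 RPKM in siAcn and 1.36 and 0.604 RPKM in siGFP libraries.

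**Figure D4:**
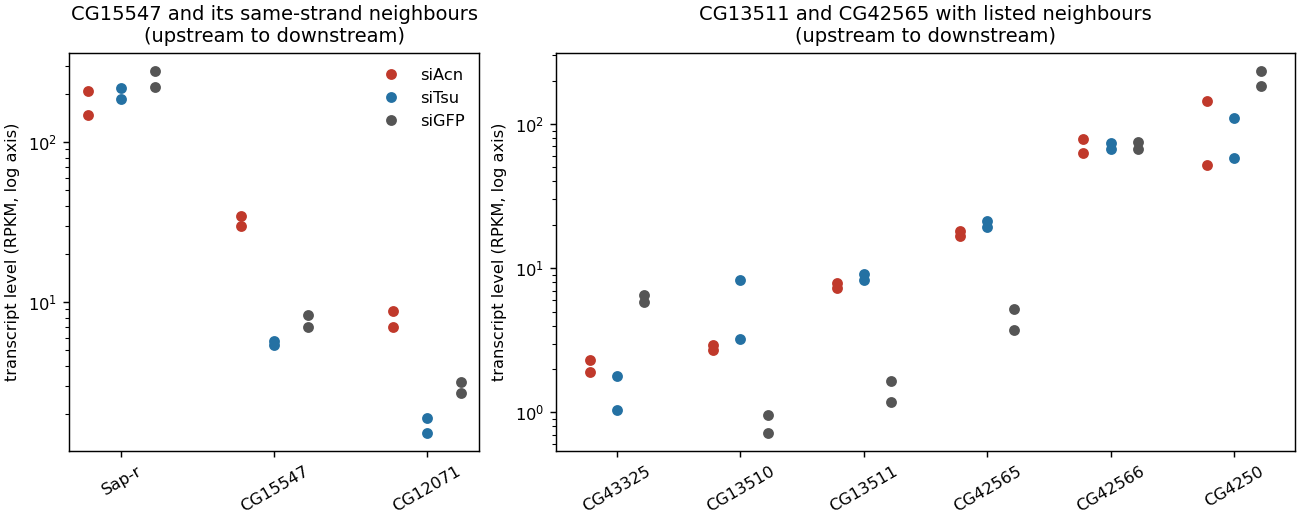
Transcript level in RPKM (y axis, log scale) of CG15547 with the same-strand genes next to it (left) and of CG13511 and CG42565 with the listed genes around them (right), in order of transcription, 2 points per group, with siAcn, siTsu and siGFP from left to right. CG12071 has the same order of groups as CG15547; CG13510 is above the control in both knockdowns, as CG13511 and CG42565 are, and CG43325 is below it.

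CG32206 is the gene with the large introns. Of its 13 listed introns 7 exceed 2 kb and 1 exceeds 10 kb, and they add up to 65.3 kb. Among the 7362 genes the median number of listed introns was 3 and the median largest intron was 339 nt, and 8.5% of genes had 13 or more introns. Only 2.95% had a largest intron as long as the first of CG32206. This first intron is 26248 nt long (3L:19379191-19405508, dm3, minus strand) and had 0.969 and 0.950 RPKM in siAcn libraries, 0.451 and 0.531 RPKM in siTsu libraries and 0.202 and 0.161 RPKM in siGFP libraries. The order of the groups is that of the transcript. The reads were 476 and 334 in siAcn, 188 and 161 in siTsu and 153 and 129 in siGFP libraries. In the annotation another gene, which the transcript table does not list, lies within this intron.

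The fold of the first intron was smaller than that of the transcript. It was 5.28-fold higher in siAcn and 2.70-fold higher in siTsu than in siGFP cells, beside 14.2-fold and 5.33-fold for the transcript. Its retention index was 10.9% and 7.71% in siAcn, 13.7% and 11.4% in siTsu and 25.3% and 23.3% in siGFP libraries, the siAcn and siTsu libraries being below the siGFP libraries. Over all 20270 introns compared, a mean index at least 2-fold lower in siAcn than in siGFP cells was found for 4429 (21.9%), this intron among them. In siTsu against siGFP cells the difference of the index was -1.18 ± 0.30 and did not pass (log2, SE, limma, adjusted p = 0.301). Summed over the 13 introns, reads numbered 548 and 407 in siAcn, 207 and 178 in siTsu and 171 and 139 in siGFP libraries, which is 5.69-fold and 2.71-fold higher per length in siAcn and siTsu than in siGFP cells.

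Of the other CG32206 introns, 5 had no read in any library and 7 had reads, most of them few. The eighth intron (6287 nt, 3L:19357864-19364220, dm3) stood out with 0.447 and 0.318 RPKM in siAcn libraries, 0.060 and 0.041 RPKM in siTsu libraries and 0.044 and 0.010 RPKM in siGFP libraries. These were 53 and 27 reads in siAcn, 6 and 3 reads in siTsu and 8 and 2 reads in siGFP libraries. Here siAcn stood alone and siTsu overlapped with siGFP, unlike in the first intron. Its fold of 14.1 in siAcn over siGFP cells was near the 14.2 of the transcript, but it was 36.9 without siGFP replicate 1 and 8.75 without siGFP replicate 2. Its retention index, 5.04% and 2.58% in siAcn against 5.48% and 1.5% in siGFP libraries, overlapped between these groups. In siTsu libraries the index was 1.81% and 0.882%, a difference from siGFP that did not pass (log2 -2.0 ± 0.46, SE, limma, adjusted p = 0.267). This intron met the filter of a mean of 0.1 RPKM only through its siAcn libraries, which also chose the gene, so nothing is read from that test. The fourth intron (6531 nt) had 10 and 23 reads in siAcn, 11 and 7 in siTsu and 4 and 2 in siGFP libraries, with both knockdowns above the control at 0.081 and 0.261, 0.105 and 0.092, and 0.021 and 0.010 RPKM. The third intron had 0 and 13, 1 and 7, and 0 and 4 reads in siAcn, siTsu and siGFP libraries, and introns 9, 10, 12 and 13 had at most 8 reads in any library.

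**Figure D5:**
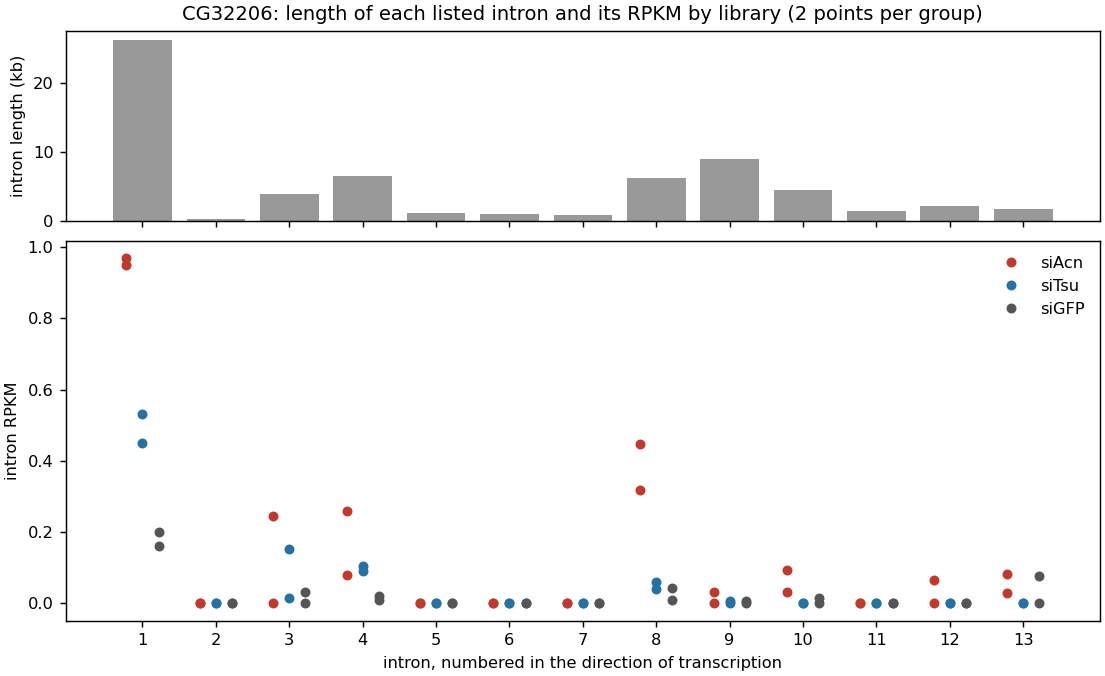
Length in kb (top) and RPKM by library (bottom, 2 points per group, with siAcn, siTsu and siGFP from left to right) of the 13 listed introns of CG32206, numbered in the direction of transcription. The first intron, of 26248 nt, is highest in siAcn libraries at 0.969 and 0.950 RPKM with siTsu in between; the eighth is high in siAcn libraries only, at 0.447 and 0.318 RPKM.

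No listed neighbour of CG32206 changed as much as it did. The pip gene, which encodes a sulfotransferase of dorsoventral patterning, lies downstream on the same strand and had 0.310 and 0.204 RPKM in siAcn libraries, 0.153 and 0.331 RPKM in siTsu libraries and 0.137 and 0.185 RPKM in siGFP libraries. It is too low for the test. The fal gene, further downstream on the other strand, had 86.0 and 74.5 RPKM in siAcn libraries, 49.7 and 47.2 RPKM in siTsu libraries and 53.1 and 59.1 RPKM in siGFP libraries, without passing in siAcn cells (log2 0.51 ± 0.14, SE, limma, adjusted p = 0.362). On the upstream side, CG33062 and Chd3, a chromatin remodeller gene, overlapped between siAcn and siGFP libraries, at 17.4 and 15.5 against 17.9 and 16.7 RPKM and at 22.2 and 24.1 against 20.2 and 22.7 RPKM.

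No single intron of the 21436 tested passed in siTsu against siGFP cells with limma, although 823 had an unadjusted p under 0.05 with a higher and 1495 with a lower index. In data simulated with the spread of these libraries, the test called 0% of introns changed by up to 4 on the log2 scale, and 50% of transcripts changed by 1 and 81.8% of those changed by 2. With 0.1 times that spread it called 80.3% of introns changed by 1 and 100% of those changed by 2. Each intron was given its own spread over these few libraries, which may make the share called too low. Of the introns of the 4 genes 6 entries passed the filter on low values, with 2 from CG32206, 2 from CG15547 and the shared interval under both CG13511 and CG42565. The eighth intron of CG32206 passed only through its siAcn libraries.

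Intron structure did not set the 4 genes apart as a group. By the longest listed intron, 3 of them fell in the class of up to 0.5 kb (3721 genes) and CG32206 in the class of over 10 kb (637 genes). The transcript of 2577 nt annotated under CG13511 and CG42565 also has an intron of 647 nt that is listed under neither name. With it, both genes would fall in the class of 0.5 to 2 kb. In the class of up to 0.5 kb, 1.56% of genes were at least 2-fold higher in siAcn than in siGFP cells, and 2.55% in siTsu cells. In the class of over 10 kb these shares were 7.06% and 8.95%. Between them, 1.74% and 2.73% of the 1210 genes with a longest intron of 0.5 to 2 kb, and 3.94% and 6.42% of the 1090 genes of 2 to 10 kb, were that much higher in siAcn and siTsu cells. Among 704 genes with no listed intron the shares were 2.84% and 7.24%. By listed introns, the class of CG32206 had the highest shares and that of the other genes the lowest, in both knockdowns, and these shares include the genes themselves. The median gene of a class went the other way in siTsu cells. Its log2 ratio of siTsu to siGFP means was lowest for over 10 kb, at -0.183. It was -0.176 for 2 to 10 kb, -0.107 for 0.5 to 2 kb, -0.092 for up to 0.5 kb and 0.039 with no listed intron. In siAcn cells the median was 0.040 for over 10 kb and -0.087 for up to 0.5 kb. Over all classes 2.54% and 4.16% of genes were at least 2-fold higher in siAcn and siTsu cells.

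The genes most like each of the 4 were found by the smallest Euclidean distance of log2(RPKM + 1), less the siGFP mean, over the 6 libraries. For CG13511 the nearest of all was CG42565 (distance 0.485), followed by Cda5, a chitin deacetylase gene (0.847), and insc, which encodes the asymmetric division factor Inscuteable (0.902). For CG42565 they were CG13511, CG15082 (0.901) and Cda5 (0.923). For CG32206 they were Cda5 (1.25), CG44954 (1.46) and CG13511 (1.53). Cda5 is named for all 3, and had 4.44 and 5.40 RPKM in siAcn libraries, 2.97 and 3.98 RPKM in siTsu libraries and 0.503 and 0.770 RPKM in siGFP libraries. CG15547 had a set of its own, CG9640 (0.921), CG1143 (1.02) and CG13255 (1.03). CG9640 had 16.5 and 11.2 RPKM in siAcn libraries, 5.02 and 2.87 RPKM in siTsu libraries and 4.53 and 2.82 RPKM in siGFP libraries, high in siAcn libraries and overlapping between siTsu and siGFP. The distances of CG15547 to the other 3 genes were 2.95 to 3.44.

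Transcripts of EJC and ASAP genes, of nonsense-mediated decay genes and of genes of nuclear silencing with Piwi were counted in the same fit. Of 7 EJC core and ASAP genes, 0 rose and 1 fell in each knockdown by limma, namely the targeted gene, with a median log2 difference of -0.22 in siAcn and -0.23 in siTsu cells, beside -0.05 and -0.09 over all genes tested. No other gene of this list had an unadjusted p under 0.05 in either knockdown. The call for Acn was lost without any one of the siAcn or siTsu libraries (limma, adjusted p = 0.0505 to 0.108). The largest other differences of this list in siTsu cells were those of mago (-0.42, adjusted p = 0.288) and eIF4AIII (-0.39, 0.409). Of 6 nonsense-mediated decay genes none passed limma in either knockdown, with medians of -0.07 in siAcn and -0.16 in siTsu cells. At an unadjusted p under 0.05 there were 0 in siAcn and 2 lower (33.3%) in siTsu cells, where 1205 of all 7362 genes (16.4%) were lower in siTsu. Here the largest was nonC, a kinase gene of this pathway, at 13.6 and 12.5 RPKM in siAcn, 10.6 and 8.06 RPKM in siTsu and 13.7 and 14.5 RPKM in siGFP libraries (siTsu log2 -0.56, limma, adjusted p = 0.10). Of 11 genes of nuclear silencing with Piwi, 0 passed limma in siAcn cells (median -0.04) and 1 fell in siTsu cells (median -0.21), beside -0.05 and -0.09 over all genes tested. At an unadjusted p under 0.05, 1 was higher and 1 lower in siAcn cells (9.09% each, beside 3.29% and 4.32% of all genes) and 4 were lower in siTsu cells (36.4%, beside 16.4% of all genes). The gene that fell was piwi, which encodes the nuclear piRNA-binding Argonaute and had 317.1 and 249.7 RPKM in siAcn, 195.7 and 124.4 RPKM in siTsu and 611.8 and 447.4 RPKM in siGFP libraries. Its difference was -1.74 in siTsu (limma, adjusted p = 0.0289, and 0.0548 to 0.173 without any one of the siTsu or siGFP libraries) and -0.89 in siAcn cells (adjusted p = 0.442).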

How the data were processed

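The authors sequenced strand-specific polyA libraries, took bases 6 to 50 of each read, aligned them to the genome and to FlyBase transcripts and introns with up to 3 mismatches, and deposited RPKM values of uniquely aligned reads per gene and per intron. Bowtie, GSNAP and dm3 are named in the submitters' processing notes, with no version. The 3 rRNA-depleted samples were not analysed here. Each intron RPKM value times its interval's length gave whole reads within 0.1 read (100% of values above 0 in each library). For 49227 of 49401 introns (99.6%) the interval was 69 nt longer than an intron annotated in BDGP6, which was used for names, lengths, strand and neighbours only. Coordinates are as listed.

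Transcripts averaging 1 RPKM or more, as log2(RPKM + 1), and introns, as log2 of intron over transcript RPKM with 0.1 RPKM added to each (means of 1 or more for the transcript and 0.1 or more for the intron), went into limma 3.58.1 under R 4.3.3 (eBayes with a trend), 3 groups of 2 in 1 fit, with Benjamini-Hochberg adjustment over all rows. Python 3.11.15, numpy 2.4.6, pandas 2.3.3 and matplotlib 3.10.9 did the rest. Folds are ratios of mean RPKM, and floors are 3 reads. Both tests were tried on simulated data. The members and lists were chosen with earlier results of these data known. Named genes were the 4 genes, Acn, tsu, the 3 genes most alike, up to 2 listed neighbours per side, and up to 3 genes per list with the largest change. Alternatives varied the added RPKM, filters, scaling, the libraries fitted, the replicate block, the variance trend and single libraries. Markers were lists for follicle cell, germline, hemocyte, muscle and fat body.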

Additional observations from a re-analysis of the deposited data

How the results depend on the processing

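In siTsu against siGFP cells the count of 271 called transcripts became 1859 with a replicate block and 6 to 369 with single libraries left out. In siAcn against siGFP cells the 4 higher and 1 lower became 155 and 142 with the block. No label says that a number marks a shared batch or day. Differences between replicates 1 and 2 correlated across genes at r = 0.63 (siAcn with siTsu), 0.51 (siAcn with siGFP) and 0.44 (siTsu with siGFP), genes not being independent. A replicate effect shared between groups was not tested further. The 3 transcripts called and CG15547 kept their direction under each of 15 alternatives. Apart from single libraries left out no alternative changed their calls, the adjusted p by limma lying at 0.000295 to 0.0135 for CG13511, 0.000236 to 0.0135 for CG42565, 0.00179 to 0.0385 for CG32206 and 0.0502 to 0.253 for CG15547. Scaling moved the median log2 difference of all genes from -0.09 to between -0.01 and 0.00.

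For introns the count of 0 became 79 of 2848 with a filter after the wording of the study (transcript above 10 RPKM in siGFP cells, intron above 10% of it in any of the 6 libraries). This set is larger than the one the study describes. It holds no intron of the 4 genes, and so gives no value for them. With the intron RPKM itself in place of the index, siTsu differences turned to 1.07 for CG32206 intron 1, 0.25 for its intron 8 and 0.49 for the shared 207-nt intron, from -1.18, -2.0 and (under CG13511 and CG42565) -2.07 and -1.69, since the index divides by a transcript that rose. CG15547 int1 ranged from -0.061 to 1.20 with single libraries left out.

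The fold of CG32206 was 6.57 and that of CG13511 3.56 from geometric means with 1 RPKM added. The int1 ratio of CG15547, 2.43 by the index, was 10.6 by intron RPKM and 1.70 to 4.27 with single libraries left out. With 2 libraries per group no outlier within a group could be named, and p-values measure only the spread between these libraries. Introns with under 10 reads in a library carry counting error beside that spread.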
